A study of Bos taurus with 6 samples.

Results

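Fetal bovine serum (FBS), the serum of unborn calves that feeds most cell cultures, was examined for 5 classes of the short RNA it carries, fragments of longer transcripts and of repeats among them. The deposited tables call these classes protein coding, antisense, pseudogene, piRNA and repetitive Elements. They were taken by these names and are 5 of the 15 classes of the human mapping and 5 of the 14 classes analysed of the mouse mapping. FBS was spun at 100000 g for 24 h, 40 mL at a time, and the RNA of 3 pellets and of 3 supernatants was sequenced. The pellet is the material that extended ultracentrifugation (UC) brings down, which includes extracellular vesicles (EVs) and other heavy particles, and the supernatant is the serum left over, of which 20 mL was concentrated on 3 kDa filters. All 6 libraries came from FBS, were made from 60 ng of RNA treated with T4-PNK and held inserts of 15 to 65 nt. RNAs longer than the inserts thus show as short pieces and not as whole transcripts. The study speaks of different batches of FBS in its text and of aliquots in a legend, so p-values here cover the spread of these libraries alone, which may be technical. The reads are bovine and were given human or mouse names, as the study asked which human and mouse RNAs serum RNA could be mistaken for.

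An mRNA carries the code for a protein, and in blood its pieces are found after the transcript has been cut by RNases. Antisense RNA is made from the strand opposite to a gene, and pseudogenes are decayed copies of genes, of which some are still transcribed. piRNAs guide PIWI proteins to silence transposons, above all in the germ line, and repetitive elements are the transposons and other repeats themselves. The T4 polynucleotide kinase (PNK) step repairs the ends of fragments cut by RNases, which then enter a small RNA library beside miRNAs. The sources used here do not say how the rows antisense and repetitive Elements were defined, and reads that match a gene and its pseudogene, or several repeats, are uncertain between them. The tables hold sums per class and no single genes, so the names of the classes could not be checked against marker genes.

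The 5 classes together took 53.9, 60.6 and 64.4% of the mapped reads in pellets 1, 2 and 3, against 68.2, 68.5 and 70.1% in supernatants 1, 2 and 3, in the human mapping. By the mouse genome they took 50.5, 59.4 and 60.9% in the pellets, against 63.8, 63.6 and 65.4% in the supernatants. More than 50% of the mapped reads of every library fell in these classes, with antisense first of all classes in 12 of 12 columns of the 2 tables. Protein coding was second in 11 of 12, since rRNA stood above it in pellet 3 of the mouse mapping. The order antisense, protein coding, piRNA, pseudogene and repetitive elements was the same in 12 of 12 columns. All these shares are of mapped reads alone. The study reports that on average only a minority of the reads mapped to the human genome, a smaller part in the pellets than in the supernatants. The shares thus do not describe all RNA of the serum. The files give shares of mapped reads (RPM) and no counts. The mapped reads were therefore only estimated, from the lowest value that at least 6 miRNAs of a library share, as 867426 (pellet 3) to 6660801 (pellet 1) reads in the human mapping and 954637 to 7339800 in the same pellets in the mouse mapping. At these depths even the rarest of the 5 classes stood on an estimated 2479 reads or more.

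**Figure D1:**
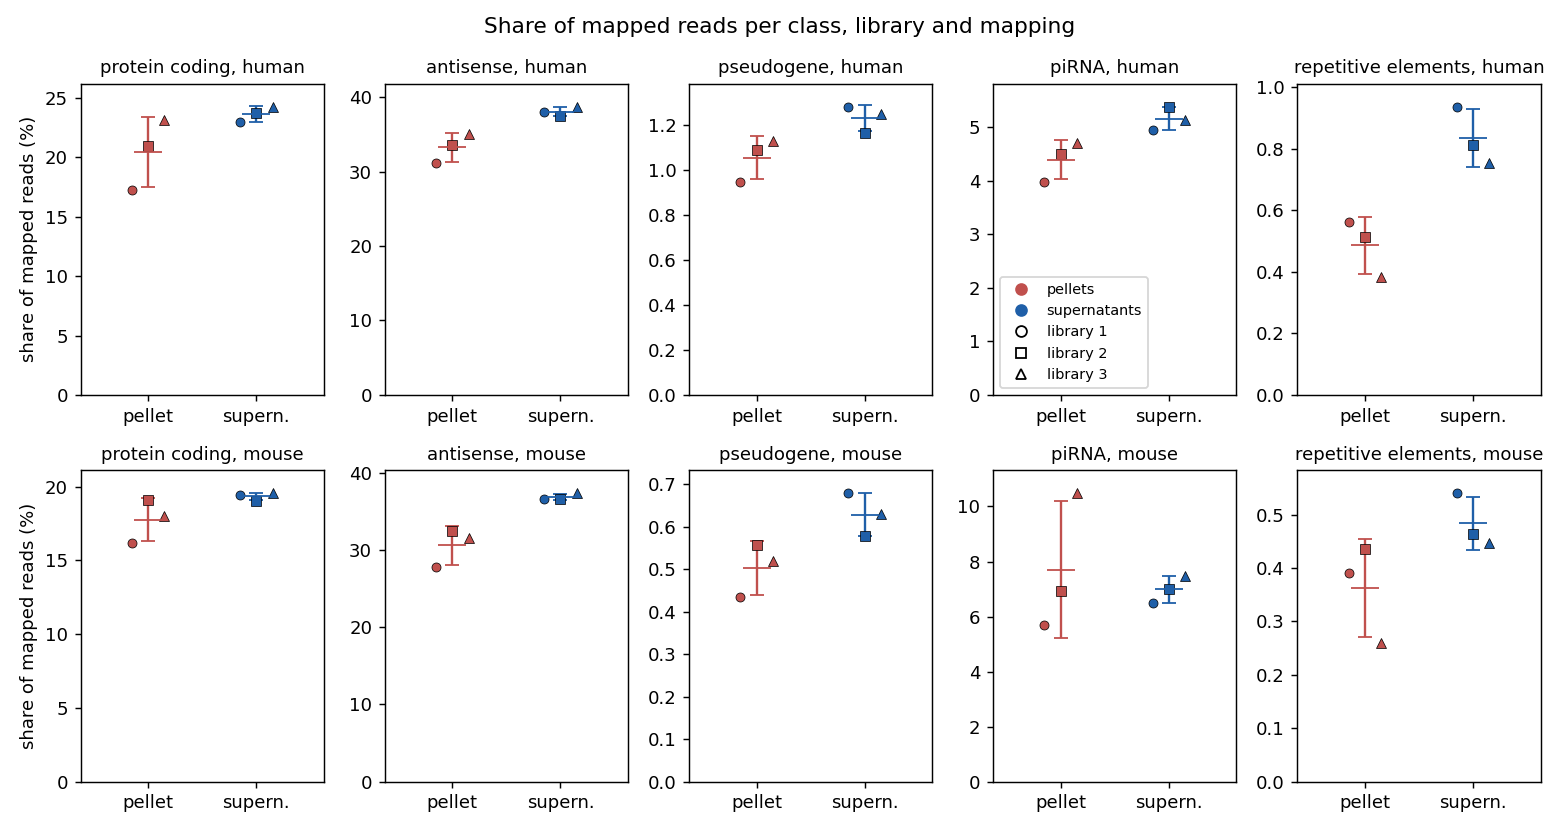
Share of mapped reads (%, from 0) of each class in each library, with the human mapping above and the mouse mapping below. Pellets are red and supernatants blue, symbols mark the libraries 1 to 3, and the bars give the mean and SD (n = 3). The 3 pellets lie below the 3 supernatants for antisense, pseudogene and repetitive elements in both mappings, while mouse piRNA in pellet 3 stands at 10.5%.

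Protein coding fragments, pieces that match mRNAs, took 17.3, 20.9 and 23.1% of the mapped reads in pellets 1, 2 and 3, against 23.0, 23.7 and 24.3% in supernatants 1, 2 and 3, in the human mapping. Pellet 3 reached into the range of the supernatants and pellet 1 was far below it. The means were 20.4% ± 2.96 in the pellets and 23.6% ± 0.648 in the supernatants (mean ± SD of 3 libraries). The log2 fold change of -0.22 (standard error 0.13, 95% interval -0.55 to 0.11) did not pass limma (adjusted p = 0.210 over the 15 classes), and without pellet 1 it was -0.10. The mouse mapping gave 16.2, 19.1 and 18.0% in the pellets, against 19.4, 19.1 and 19.5% in the supernatants. The log2 fold change there was -0.13 (95% interval -0.44 to 0.18, standard error 0.13, adjusted p = 0.452 over the 14 classes, limma). Leaving the reads of rRNA and miRNA out of the total turned it to 0.049, and without pellet 1 it was -0.062.

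Antisense fragments, the largest class, took 31.2, 33.5 and 35.0% in pellets 1, 2 and 3, against 38.0, 37.4 and 38.7% in supernatants 1, 2 and 3, in the human mapping. All pellets lay below all supernatants. The means were 33.2% ± 1.93 in the pellets and 38.1% ± 0.639 in the supernatants (mean ± SD of 3 libraries), and the log2 fold change of -0.20 (standard error 0.091) did not pass limma (adjusted p = 0.146). By the mouse genome antisense held 27.8, 32.4 and 31.6% in the pellets, against 36.6, 36.6 and 37.3% in the supernatants. The fractions did not overlap there either, and the log2 fold change of -0.27 (standard error 0.13) did not pass the test (adjusted p = 0.158, limma). Antisense had the lowest coefficient of variation of the 15 classes of the human mapping, at 5.82% in the pellets and 1.68% in the supernatants.

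The ratio of protein coding to antisense reads, taken here as that of sense to antisense, is free of the total to which RPM are scaled. Whether the antisense row holds reads opposite to protein coding genes alone, or reads of genes annotated as antisense, was not tested. The ratio was 0.554, 0.625 and 0.660 in pellets 1, 2 and 3, against 0.604, 0.633 and 0.627 in supernatants 1, 2 and 3, in the human mapping. The pellets lay on both sides of the supernatants, and the log2 difference of -0.024 (standard error 0.094, 95% interval -0.26 to 0.22) did not pass limma (adjusted p = 0.870 over 14 classes relative to antisense). Without pellet 1 it turned to 0.047. The ratio in the mouse mapping was 0.584, 0.588 and 0.570 in the pellets, against 0.531, 0.521 and 0.524 in the supernatants. All mouse values of the pellets were thus higher than those of the supernatants, at 0.581 ± 0.00940 in the pellets and 0.525 ± 0.00491 in the supernatants (mean ± SD of 3 libraries). An exact permutation test of 3 against 3 libraries, two-sided, gave p = 0.10, the smallest it can give. limma did not call the log2 difference of 0.15 (standard error 0.079, 95% interval -0.056 to 0.35, adjusted p = 0.268 over 13 classes). Of these 13 classes 46.2% did not overlap in the same direction, so a lack of overlap was common among ratios to antisense. Antisense exceeded protein coding in every library of both mappings, at 60.2% (pellet 3, human mapping) to 65.7% (supernatant 2, mouse mapping) of their sum.

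**Figure D2:**
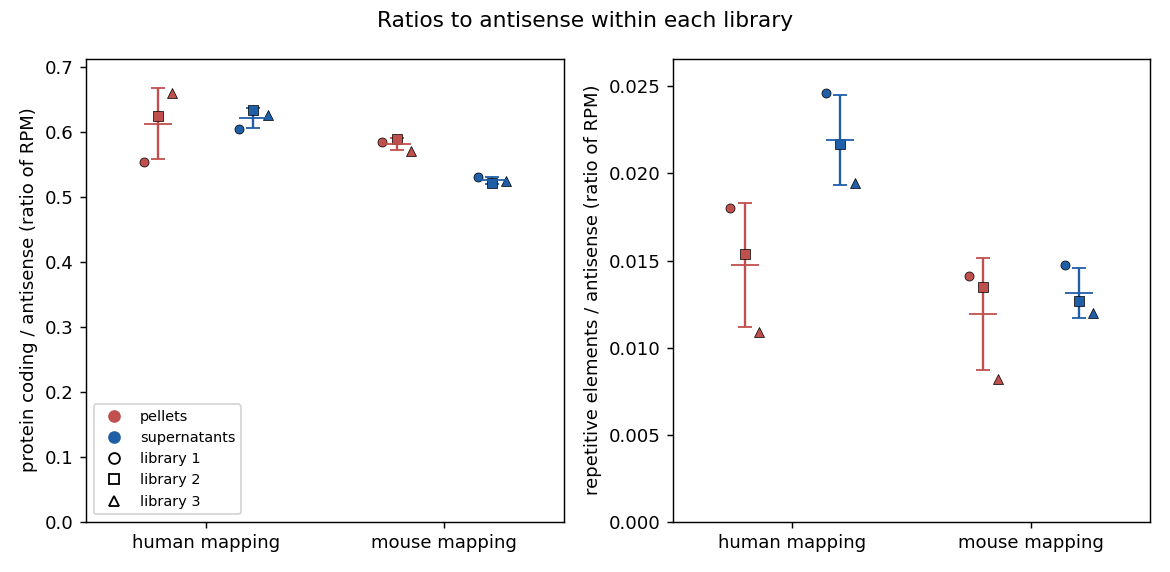
Ratio of protein coding to antisense RPM (left) and of repetitive elements to antisense RPM (right) in each library, both axes from 0. Pellets are red and left of the blue supernatants, symbols mark the libraries, and the bars give the mean and SD (n = 3). The ratio of protein coding to antisense lies at 0.570 to 0.588 in the pellets and at 0.521 to 0.531 in the supernatants of the mouse mapping. The fractions overlap in the human mapping.

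Pseudogene fragments, pieces that match decayed gene copies, took 0.949, 1.09 and 1.13% in pellets 1, 2 and 3, against 1.28, 1.17 and 1.25% in supernatants 1, 2 and 3, in the human mapping. By the mouse genome they took 0.434, 0.558 and 0.521% in the pellets, against 0.679, 0.578 and 0.630% in the supernatants. The pellets were below the supernatants in both mappings, without overlap. limma called neither the log2 fold change in the human mapping, -0.23 (standard error 0.11, adjusted p = 0.147, and -0.15 without pellet 1), nor that in the mouse mapping, -0.32 (standard error 0.15, adjusted p = 0.158). The ratio of pseudogene to protein coding reads in the human mapping averaged 0.0520 ± 0.00301 in the pellets and 0.0522 ± 0.00336 in the supernatants (mean ± SD of 3 libraries, two-sided p = 0.90 in an exact permutation test). That ratio in the mouse mapping was 0.0268, 0.0292 and 0.0289 in the pellets, against 0.0349, 0.0303 and 0.0322 in the supernatants. The fractions did not overlap there (exact permutation p = 0.10, or 0.25 adjusted over the 10 ratios among the 5 classes).

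Reads named piRNA took 3.99, 4.50 and 4.71% in pellets 1, 2 and 3, against 4.96, 5.39 and 5.13% in supernatants 1, 2 and 3, in the human mapping. The pellets were lower without overlap, and the log2 fold change of -0.23 (standard error 0.10) did not pass limma (adjusted p = 0.146). The mouse mapping gave 5.69, 6.94 and 10.5% in the pellets, against 6.49, 6.98 and 7.48% in the supernatants. Here pellet 3 was above all supernatants while pellet 1 was below them. The log2 fold change was 0.096 (standard error 0.25, 95% interval -0.52 to 0.71, adjusted p = 0.830, limma), and without pellet 3 it was -0.15 (adjusted p = 0.432). Among the pellets mouse piRNA had the widest spread of the 5 classes, with a coefficient of variation of 32.2%, against 7.08% among the supernatants, where pseudogene and repetitive elements varied more. Pellet 3 was also the library with the fewest estimated mapped reads and with the highest share of rRNA, at 18.6% in the mouse mapping, and the part of these in its piRNA value was not tested.

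Repetitive elements, the transposons and other repeats that piRNAs are known to silence, took 0.561, 0.514 and 0.382% in pellets 1, 2 and 3, against 0.936, 0.813 and 0.754% in supernatants 1, 2 and 3, in the human mapping. The highest pellet stayed below the lowest supernatant. The class fell to 0.486% ± 0.0930 in the pellets, against 0.834% ± 0.0932 in the supernatants (mean ± SD of 3 libraries), a ratio of 0.582 and a log2 fold change of -0.79 (standard error 0.18, 95% interval -1.25 to -0.34, adjusted p = 0.0215, limma). It was the only class of the 15 called lower, so 6.67% of the classes were called lower and 20.0% higher. With centred log-ratios, which take each class relative to the mean of all logarithms, 3 classes were higher and 5 lower, and with the reads of rRNA and miRNA left out 3 were higher and 0 lower. The call of repetitive elements was lost in that second scaling (log2 fold change -0.60, adjusted p = 0.0784) and without pellet 2 (adjusted p = 0.0539) or supernatant 1, 2 or 3 (adjusted p = 0.0903, 0.0759 and 0.0509, limma).

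Mapped to mouse, repetitive elements took 0.391, 0.437 and 0.260% in the pellets, against 0.540, 0.464 and 0.447% in the supernatants. The fractions did not overlap, pellet 2 came close to supernatant 3, and the log2 fold change of -0.45 (standard error 0.23, 95% interval -1.02 to 0.12) did not pass limma (adjusted p = 0.161). Without pellet 3 it was -0.22 (adjusted p = 0.307). Among the 5 classes 0 of 5 were thus called in the mouse mapping (0 also at an unadjusted p under 0.05), and 1 of 5 in the human mapping. Of all 14 classes of the mouse mapping 21.4% were called higher and 0% lower. Without overlap and lower in the pellets were 4 of the 5 classes of the human mapping and 3 of the 5 of the mouse mapping, against 26.7% and 28.6% of all classes. These 4 classes are all that were lower without overlap in the human mapping, and in the mouse mapping the class others joined the 3. Of the 5 classes 0 were higher without overlap in either mapping, against 33.3% of all classes of the human and 21.4% of the mouse mapping. The median log2 fold change was -0.23 over the 5 classes and -0.11 over all 15 in the human mapping, and -0.27 over the 5 classes and -0.084 over all 14 in the mouse mapping.

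**Figure D3:**
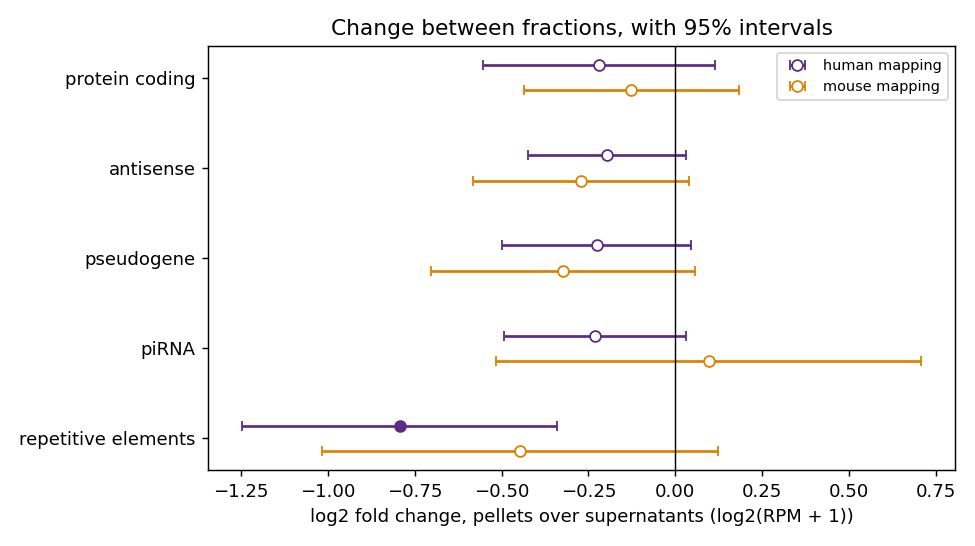
Log2 fold change of each class, pellets over supernatants on log2(RPM + 1), with its 95% interval from limma, for the human (purple) and mouse (orange) mapping. The filled point passed the adjusted threshold and open points did not. The intervals of all classes but repetitive elements of the human mapping, at -0.79, reach over 0.

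Between the fractions the share of rRNA and miRNA together moved against that of the 5 classes. Fragments of rRNA and miRNAs together took 24.1, 17.0 and 20.1% in pellets 1, 2 and 3, against 10.2, 8.83 and 8.81% in supernatants 1, 2 and 3, in the human mapping. The mouse mapping gave 29.8, 19.5 and 26.2% in the pellets, against 17.0, 15.2 and 14.6% in the supernatants. There rRNA alone overlapped, with 11.2% in pellet 2 and 11.5% in supernatant 1. Among the pellets the shares did not always move apart, since pellet 3 exceeded pellet 2 in both shares in both mappings. RPM are parts of a fixed total, so a class that takes more reads leaves fewer for the rest. The 5 classes together were lower in the pellets by 9.31 percentage points in the human mapping and by 7.35 in the mouse mapping, without overlap in both (exact permutation test, two-sided, p = 0.10 each). Of the reads outside rRNA and miRNA they took 71.1, 72.9 and 80.5% in the pellets, against 75.9, 75.2 and 76.9% in the supernatants, in the human mapping. The fractions then overlapped, with a difference of -1.14 percentage points (exact permutation p = 0.80), and in the mouse mapping the difference became -0.10 (p = 1). Together rRNA and miRNA were higher in the pellets by 11.1 percentage points in the human and 9.55 in the mouse mapping. Leaving them out therefore shrinks the difference by arithmetic, so the overlap and these p-values are no separate evidence. On the total without rRNA and miRNA the log2 fold changes of the human mapping were -0.031 for protein coding, -0.0074 for antisense, -0.037 for pseudogene and -0.043 for piRNA, beside -0.60 for repetitive elements. Those of the mouse mapping went both ways, at 0.049 for protein coding and 0.27 for piRNA. They were -0.096 for antisense, -0.15 for pseudogene and -0.27 for repetitive elements, and none passed limma (adjusted p of 0.409 or more). Amounts of RNA per volume of serum were not analysed here, so a lower amount in the pellet and a higher amount of rRNA and miRNA cannot be told apart.

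Relative to antisense, 0 of the other 4 classes passed limma in either mapping (1 in the human and 0 in the mouse mapping at an unadjusted p under 0.05). Among all classes set against antisense 28.6% passed as higher in the human and 23.1% in the mouse mapping, and 0% as lower in both. Repetitive elements came nearest, at 0.0180, 0.0154 and 0.0109 reads per antisense read in pellets 1, 2 and 3, against 0.0246, 0.0217 and 0.0195 in supernatants 1, 2 and 3, in the human mapping. The pellets were lower without overlap, as were 7.14% of all classes set against antisense in the human mapping (35.7% were higher), with a log2 difference of -0.60 (standard error 0.22, adjusted p = 0.107, limma). With the replicate number as a block the same difference passed (adjusted p = 0.0395), as it did without pellet 1 (-0.76, adjusted p = 0.0468), and without pellet 3 it was -0.39 (adjusted p = 0.0948). The ratio in the mouse mapping was 0.0141, 0.0135 and 0.00822 in the pellets, against 0.0147, 0.0127 and 0.0120 in the supernatants, with overlap and a log2 difference of -0.17 (adjusted p = 0.717, limma). Without pellet 3 it turned to 0.073. For pseudogene the log2 difference to antisense was -0.029 in the human and -0.053 in the mouse mapping. For piRNA it was -0.035 in the human mapping. In the mouse mapping there were 0.205, 0.214 and 0.332 piRNA reads per antisense read in the pellets, against 0.177, 0.191 and 0.200 in the supernatants. The pellets were all higher, with pellet 3 far above the rest, and the log2 difference of 0.37 (95% interval -0.18 to 0.92) did not pass limma (adjusted p = 0.273) and was 0.15 without pellet 3.

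The spread between libraries was larger among the pellets than among the supernatants for 5 of 5 classes in both mappings, as it was for 14 of 15 and 12 of 14 of all classes. The coefficients of variation of the 5 classes ran from 5.82% (antisense) to 19.1% (repetitive elements) in the pellets and from 1.68% (antisense) to 11.2% (repetitive elements) in the supernatants in the human mapping. In the mouse mapping they ran from 8.14% (protein coding and antisense) to 32.2% (piRNA) in the pellets and from 1.13% (antisense) to 10.2% (repetitive elements) in the supernatants. The medians over all classes were 20.1% in the pellets and 6.49% in the supernatants of the human mapping. In the pellets all 5 classes lay below that median, while in the supernatants repetitive elements lay above it. In the mouse mapping the medians were 28.8% in the pellets and 7.55% in the supernatants. Among the pellets piRNA lay above that median and the other 4 classes below it. Among the supernatants repetitive elements and, at 8.02%, pseudogene lay above it. Pellet 1 was the lowest library for protein coding, antisense, pseudogene and piRNA in both mappings, and it had the highest miRNA share, at 13.1% in the human mapping. Pellet 3 was the lowest for repetitive elements in both mappings.

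Each library was mapped to both genomes, and the 5 classes differed in the share of reads each genome gave them. The tables were normalized separately, so levels are set side by side here without a test. Pseudogene RPM were 1.89 to 2.19 times as high in the human as in the mouse mapping, in 6 of 6 libraries. In pellet 1 an estimated 63218 reads were called pseudogene in the human and 31849 in the mouse mapping. Repetitive elements were 1.18 to 1.75 times as high in the human mapping, in 6 of 6 libraries, protein coding 1.06 to 1.28 times and antisense 1.02 to 1.12 times. In estimated reads the order of both depended on the library, with 0.966 to 1.17 times as many human as mouse reads for protein coding (more in 5 of 6 libraries) and 0.908 to 1.02 times for antisense (more in 2 of 6). For pseudogene (1.70 to 1.98 times) and repetitive elements (1.13 to 1.56 times) the estimated reads were also higher in the human mapping in 6 of 6 libraries. piRNA went the other way, with 0.449 (pellet 3) to 0.771 (supernatant 2) times as many RPM in the human as in the mouse mapping, lower in 6 of 6 libraries. In pellet 3 an estimated 40832 reads were called piRNA in the human and 99980 in the mouse mapping. Between the fractions the ratio of the piRNA means, pellets over supernatants, was 0.853 in the human and 1.10 in the mouse mapping.

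**Figure D4:**
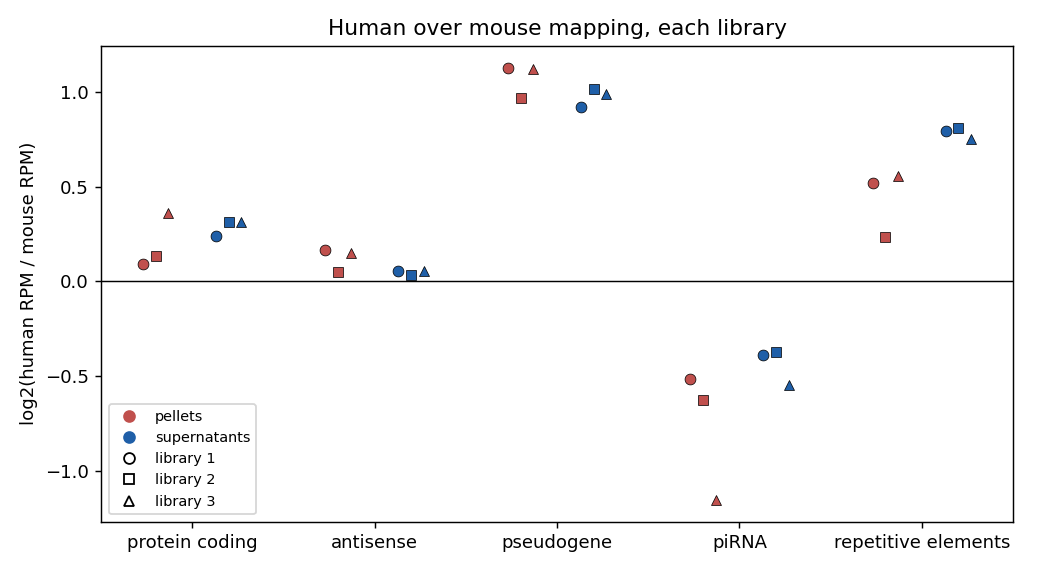
Log2 of human over mouse RPM for each class and library, with pellets in red left of supernatants in blue and symbols for the libraries. All 6 libraries lie above 0 for protein coding, antisense, pseudogene and repetitive elements and below 0 for piRNA. In estimated reads antisense was higher in the human mapping in 2 of 6 libraries and protein coding in 5 of 6.

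Ratios within a library can be compared between the mappings. The ratio of protein coding to antisense was higher in the human than in the mouse mapping in 5 of 6 libraries, by 1.12 times on average. The exception was pellet 1 (log2 human minus mouse -0.078). The mean log2 difference of 0.16 ± 0.13 (SD, n = 6) gave p = 0.0625 in a two-sided exact sign-flip permutation test, the next to smallest p that 6 libraries allow. A pellet and a supernatant may come from the same serum, in which case the 6 are not independent. The pellet to supernatant change relative to antisense differed between the mappings for repetitive elements, at a log2 of -0.60 in the human and -0.17 in the mouse mapping, a difference of -0.42 (standard error 0.072, 95% interval -0.60 to -0.24, adjusted p = 0.0077 over 13 classes, limma). The log2 of human over mouse, relative to antisense, was 0.35, 0.19 and 0.41 in pellets 1, 2 and 3, against 0.74, 0.77 and 0.70 in supernatants 1, 2 and 3, without overlap. The excess of the human over the mouse mapping was thus larger in every supernatant than in any pellet. Of the 13 classes 30.8% differed between the mappings, namely repetitive elements, miRNA, tRNA and rRNA. The difference was not called for protein coding (-0.17, 95% interval -0.39 to 0.051, adjusted p = 0.177), piRNA (-0.40, 95% interval -0.89 to 0.086, adjusted p = 0.177) or pseudogene (0.024, 95% interval -0.11 to 0.15, adjusted p = 0.718, limma). Without pellet 3 the difference of piRNA was -0.19, and without pellet 1 that of protein coding was -0.094.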

How the data were processed

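RNA from 3 pellets and 3 supernatants of FBS was sequenced on an Illumina HiSeq instrument as NEBNext small RNA libraries with single-end reads of 50 nt. The authors deposited RPM values, normalized to the mapped reads of each library, per RNA class and per miRNA, for hg19 and, per the submitters' processing notes, mm10. The mapping to hg19 used the exceRpt pipeline V2.2.8. For the mouse mapping the pipeline was not given in the sources used here. The class values of each library add up to all its mapped reads, and SRP was not analysed for mouse.

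Each class table was fitted as a whole on log2(RPM + 1), a pseudocount of 1 RPM, without covariate or filter, using limma 3.58.1 (R 4.3.3). Two-sided p-values were adjusted by Benjamini-Hochberg with a threshold of 0.05. This scale understates changes of low classes. The same fit was run on log2 ratios to antisense, and on their differences between the mappings. Single values were tested by exact permutation over the 20 relabellings, or by sign flips over the 6 libraries. Steps were tested on simulated data. Figures were drawn with matplotlib 3.10.9 in Python 3.11.15.

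Mapped reads were estimated from the miRNA tables, of whose values 28.6 to 57.4% were whole reads within 0.02 reads, so no count model was fitted and no counting interval is given. Deviations of pellets and supernatants of the same number from their fraction's mean correlated over classes at 0.40, 0.37 and 0.73 in the human mapping. In the mouse mapping these correlations were 0.46, 0.0040 and -0.067. The libraries are the same in both mappings, so whether the numbers pair them was not settled. The main fits took no pairs in either mapping, and the replicate block was run as an alternative. All 5 classes are named, other classes where they passed a test, and miRNA, rRNA and others. Classes and lists were chosen with earlier results of these data known. Alternatives were pseudocounts of 0.1 and 10 RPM, a filter at 1000 RPM in at least 3 libraries, other scalings, a replicate block, and fits without each library.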

Additional observations from a re-analysis of the deposited data

Results flagged for a closer look

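The pellet to supernatant change of repetitive elements relative to antisense differed between the mappings by a log2 of -0.42 (human minus mouse, limma, adjusted p = 0.0077), with a log2 change of -0.60 in the human and -0.17 in the mouse mapping. Over the alternatives run the difference ranged from -0.47 to -0.36 and its adjusted p from 0.0026 to 0.0474 (with the replicate block, run after seeing the data), and it passed in 10 of 10. The cause was not tested.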

How the results depend on the processing

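Of 275 alternative values of tested results 252 kept their direction and their side of the threshold. The 5 lost calls are those of repetitive elements of the human mapping given above. Centred log-ratios moved the median log2 fold change to -0.51 from -0.11 in the human and to -0.63 from -0.084 in the mouse mapping. By them 8 classes were called in the human mapping against 4 (3 higher and 5 lower), and 7 in the mouse mapping against 3 (2 higher and 5 lower). Among the 5 classes this added antisense, pseudogene and piRNA of the human and antisense, pseudogene and repetitive elements of the mouse mapping as lower. The other changes in these counts were in classes outside the 5. Among classes of at least 1000 RPM 2 were called in the human mapping, and relative to antisense 1 in each mapping against 4 in the human and 3 in the mouse mapping. Leaving out each library gave 3 to 6 calls in the human and 2 to 5 in the mouse mapping, the same ranges relative to antisense, and 3 to 5 classes that differed between the mappings against 4. Without pellet 3, 6 classes were called in the human and 5 in the mouse mapping.

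Signs turned only in values that had not passed. Without single libraries, and relative to antisense, the log2 differences of the human mapping ran from -0.080 to 0.047 for protein coding (turned without pellet 1), from -0.056 to 0.0013 for pseudogene (turned without pellet 1 and, at 0.00078, supernatant 1) and from -0.063 to 0.0079 for piRNA (turned without supernatant 2). Those of the mouse mapping ran from -0.32 to 0.073 for repetitive elements (turned without pellet 3) and from -0.11 to 0.0077 for pseudogene (turned without supernatant 1). The log2 fold change of mouse piRNA ran from -0.15 to 0.29 and was -0.45 by centred log-ratios, mouse protein coding was 0.049 without rRNA and miRNA, and the difference between mappings of pseudogene ran from -0.0069 (without supernatant 1) to 0.050. The summed share of the 5 classes, pellets minus supernatants, differed by -11.7 to -6.47 percentage points in the human mapping when single libraries were left out. In the mouse mapping this difference ran from -9.32 to -4.13 (without pellet 1). Without the class others it was -11.0 in both mappings. With rRNA and miRNA, which together were higher in the pellets, left out of the total it shrank by arithmetic, to -1.14 in the human and -0.10 in the mouse mapping. For all turned signs the cause was not tested. With the replicate block the human mapping had 4 and the mouse mapping 3 calls, as without it, and among the 5 classes it changed the call of repetitive elements relative to antisense in the human mapping alone, which gave 5 calls there against 4. The differences between the mappings were run with the block after seeing the data, with 4 calls as without it and an adjusted p of 0.0474 for repetitive elements. In the mouse mapping 0 of the 5 classes passed with the block (limma, adjusted p = 0.295 for repetitive elements). Whether the numbers pair the libraries was not settled. What depth adds to the spread was not tested, since the files give no counts.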

Other observations

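Within the human mapping the ratio of pseudogene to piRNA reads was the tightest of the 10 ratios among the 5 classes in the pellets, at 0.238, 0.242 and 0.240 in pellets 1, 2 and 3, against 0.259, 0.217 and 0.244 in supernatants 1, 2 and 3. Its coefficient of variation among pellets was 0.827% and among supernatants 8.86%, and the means did not separate the fractions (exact permutation test, two-sided, p = 1). In the mouse mapping the same ratio was 0.0762, 0.0803 and 0.0497 in the pellets, against 0.105, 0.0828 and 0.0842 in the supernatants, lower in the pellets without overlap (exact permutation p = 0.10, or 0.25 adjusted over the 10 ratios). The ratio was picked after its values were seen.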
